A study of Rattus norvegicus and Bos taurus with 6 samples.

Results

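The nuclei described here were the pericytes and vascular smooth muscle cells, together the mural cells, of subcutaneous white adipose tissue from dairy cattle (cow WAT). In the cow library, 2064 of 2297 nuclei had at most 15000 transcripts, counted as unique molecular identifiers (UMIs), and 290 of these were mural. That is 14.1% (exact binomial 95% interval 12.6 to 15.6). A nucleus was taken as mural when A was at least 5 and more than 2 times B. A was its UMIs summed over NOTCH3, PDGFRB, RGS5, TRPC6, STEAP4, MYH11, ACTA2, GUCY1B1 and CSPG4. B was its UMIs summed over the endothelial genes PTPRB, PECAM1 and FLT1, the stromal genes PDGFRA, DCN and FBN1, and the immune genes PTPRC, MRC1 and DOCK2. The 88 mural nuclei with MYH11 plus ACTA2 at 3 UMIs or more were called smooth muscle, and the other 202 were called pericyte. Both names follow this rule, so the levels of these genes describe the choice and are not results.

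Single-nucleus RNA sequencing was run on Parse Evercode libraries of 4 rat fat depots and of cow WAT, which together held 13537 nuclei. The cow tissue was flank subcutaneous fat of female Holstein dairy cattle in early lactation, housed in tie-stalls on sawdust, without disease, and was snap frozen before nuclei were isolated. The rat depots came from male Dahl SS rats and were thoracic aortic perivascular fat (taPVAT), subscapular brown fat (BAT), mesenteric perivascular fat (mesPVAT) and retroperitoneal (RP) fat. Each depot was 1 library, the sources used here do not give the number of cows, and no barcode of the cow library occurred in a rat Parse library. With 1 library per depot there was no replicate spread and no test, so every interval below is a 95% interval for counting error alone. The cow library was read as 2 sublibraries, which are technical splits of the same nuclei suspension.

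Mural cells wrap the endothelial tube of blood vessels. Smooth muscle cells form contractile layers around arteries and larger veins, whereas pericytes sit singly within the basement membrane of capillaries and venules. Both depend on PDGF-B from the endothelium, sensed through PDGFRB, and on Notch signals received by NOTCH3, and both relax in response to nitric oxide through soluble guanylate cyclase and cyclic GMP.

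Mural nuclei held a median of 3377 UMIs, against 3038 in the 1774 other cow nuclei. Smooth muscle nuclei were deeper, with a median of 4432 UMIs (order-statistic interval 3627 to 5747) and 2159 genes, than pericyte nuclei, with 2998 UMIs (2745 to 3422) and 1612 genes. Sublibrary 1 contributed 140 mural nuclei of 1033 (13.6%) and sublibrary 2 contributed 150 of 1031 (14.5%). Smooth muscle made up 30.3% of mural nuclei (25.1 to 36.0). Nuclei with 2 cells' RNA were not removed, and 32 members had A at no more than 3 times B.

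The members lay well inside the rule for the most part. Their median A was 18 UMIs, with an interquartile range of 10 to 30, and their median B was 2, with B at 0 in 58 nuclei (20%). At the edge, 15 members had A at exactly 5, and 12 nuclei with A at 4 and above 2 times B lay outside. A further 194 nuclei had A of at least 5 but not above 2 times B, and their median depth was 7187 UMIs. MYH11 plus ACTA2 was 0 in 132 members, 1 in 46, 2 in 24, 3 in 11 and 6 or more in 65, and taking a nucleus as smooth muscle from 1 UMI on would raise that group from 88 to 158.

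The 9 genes of the rule describe the choice of members and are no check of the mural label, for which genes outside the rule are given further on. NOTCH3 was detected in 80.0% of mural nuclei, against 5.84% of 257 endothelial, 10.7% of 271 stromal and 6.00% of 150 immune nuclei, classes chosen by the same form of rule from their own 3 genes. The median depths of these classes were 4642, 4147 and 4254 UMIs, all above that of the mural nuclei. GUCY1B1 was detected in 84.1% and PDGFRB in 82.4% of mural nuclei. PDGFRB also appeared in 42.8% of stromal nuclei, 24.9% once every nucleus was thinned to 2000 UMIs, where the mural share was 69.4%. The textbook pericyte genes RGS5 and STEAP4 were sparse, in 30.3% and 23.1% of mural nuclei. MYH11 and ACTA2 were in 41.7% and 41.0%.

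**Figure D1:**
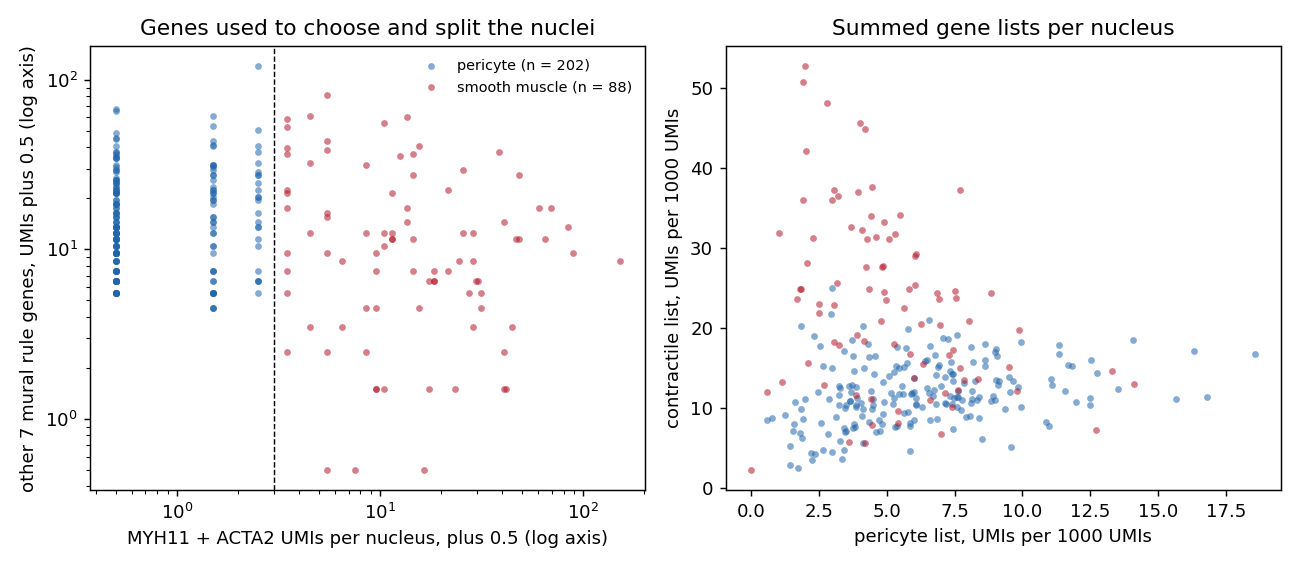
Each point is 1 of the 290 mural nuclei of cow WAT, with 202 pericyte nuclei in blue and 88 smooth muscle nuclei in red. The left panel plots the UMIs of MYH11 plus ACTA2 against those of the other 7 rule genes on log axes, with the dividing value of 3 as a dashed line, and the right panel plots the summed pericyte list against the summed contractile list, neither of which holds a rule gene, per 1000 UMIs of the nucleus. Smooth muscle nuclei reach 52.7 UMIs of the contractile list per 1000, pericyte nuclei no more than 25, and the groups overlap below that.

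The first comparison set mural nuclei against all other cow nuclei, to find what they expressed beyond the genes that chose them. UMIs were pooled over each set and expressed as CPM, the UMIs of a gene per 1000000 UMIs of the set, and a gene was measured when it had at least 20 UMIs over both sets. Of 17600 genes measured, 8.51% were at least 2-fold higher and 10.5% at least 2-fold lower in mural nuclei, after adding 1 UMI to each side. The fold is a size limit and not a test. Levels are compared within a gene only, because cow gene lengths were not analysed here.

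Genes of the contractile apparatus led the mural nuclei. Of 26 genes in a contractile list without MYH11 and ACTA2, all were measured, 22 were at least 2-fold higher and 1 (LMCD1) was at least 2-fold lower, with a median log2 ratio of 2.12 against 0.05 over all genes measured. DES, which encodes the intermediate filament desmin, was at 94 (77.5 to 113) CPM in mural and 3.4 (2.22 to 4.98) CPM in other nuclei, a ratio of 27.7-fold (18 to 44.2). CNN1, the actin-binding calponin of smooth muscle, was at 55.3 (42.8 to 70.2) against 3.66 (2.43 to 5.29) CPM. TAGLN, transgelin, was at 124 (105 to 145) against 9.66 (7.59 to 12.1) CPM. These 3 genes had counting intervals far apart between mural and other nuclei. SYNPO2, an actin-bundling protein, stood at 1310.4 (1247 to 1376) CPM in mural nuclei, 10.7-fold (9.84 to 11.6) above the rest. TPM2 (a tropomyosin) and LMOD1 (leiomodin, which nucleates actin filaments) were higher by 10.2-fold (8.5 to 12.3) and 10.1-fold (8.01 to 12.8). MYOCD, the coactivator of serum response factor that drives the smooth muscle program, was at 131 (112 to 153) CPM, 10.8-fold (8.31 to 14.1) above the rest.

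Several leading genes outside the contractile apparatus were abundant in mural nuclei. ADGRL3, a latrophilin adhesion receptor, was detected in 90.3% of mural nuclei at 2869 (2774 to 2966) CPM, against 64.1 CPM in endothelial, 97.9 in stromal and 77.5 in immune nuclei. ANO3, a member of the TMEM16 family of membrane proteins, was detected in 76.2% of mural nuclei at 2581 (2492 to 2673) CPM and stood at 109, 70.1 and 53 CPM in those classes. BMP5, a bone morphogenetic protein, was at 409 (374 to 447) CPM, 10.7-fold (9.23 to 12.4) above other nuclei. Each of these 3 genes had a higher level in the mural nuclei than in any of the other 3 classes. RCAN2, a regulator of calcineurin, was at 932 (878 to 988) CPM, but 1 smooth muscle nucleus held 30.7% of the RCAN2 UMIs of its group, and 1 pericyte nucleus held 36.7% of those of the pericyte group. TBX2, a T-box transcription factor, was at 94 (77.5 to 113) CPM against 9.27 (7.24 to 11.7).

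By the naming rule, the 20 genes with the highest mural ratio, outside the rule genes, also held BREH1, NDRG4, AJUBA, RERGL, IRAG1, FHL5, SEPTIN4 and KCNAB1. Their ratios to other nuclei ran from 10.1-fold for LMOD1 to 27.7-fold for DES. DES, RERGL, AJUBA, SEPTIN4 and TBX2 were each at 0 UMIs in stromal or immune nuclei, where 3 UMIs would correspond to 2.08 CPM (stromal) and 3.88 CPM (immune).

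**Figure D2:**
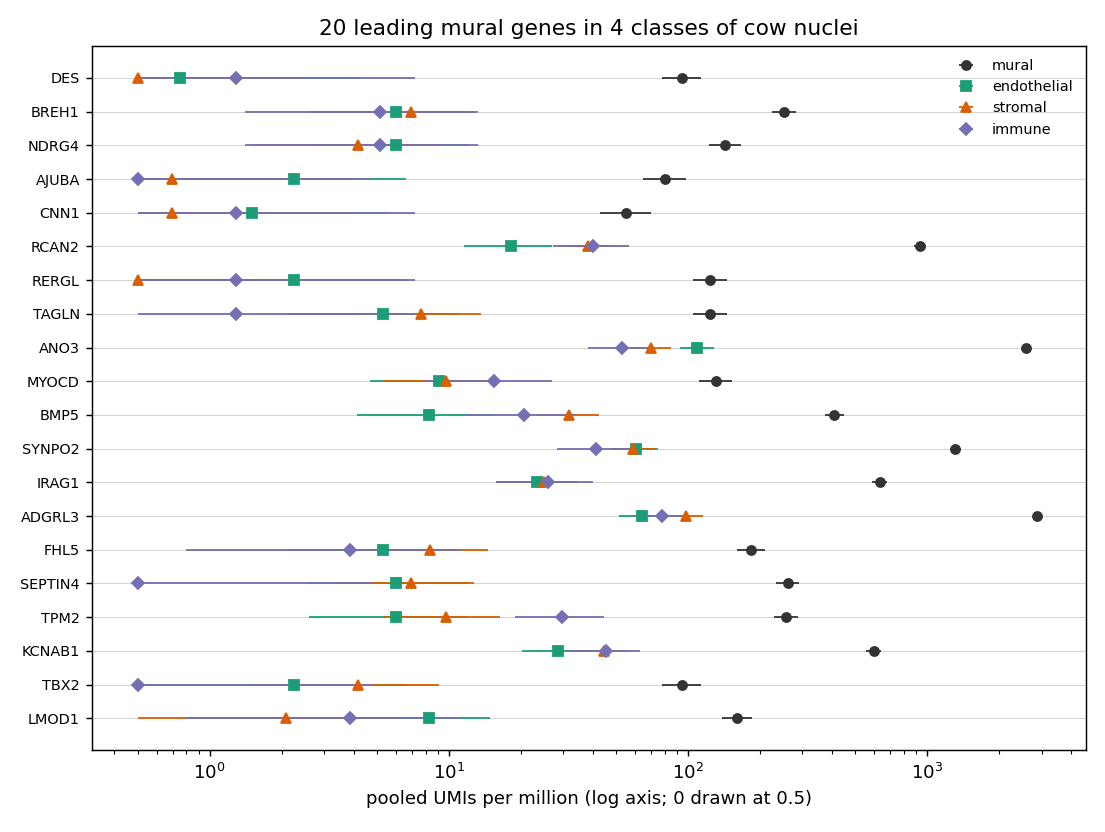
Pooled CPM on a log axis for the 20 genes with the highest mural ratio, in 290 mural, 257 endothelial, 271 stromal and 150 immune nuclei of cow WAT, with bars for 95% Poisson counting intervals and 0 drawn at 0.5. In all 20 genes the mural point lies above the other 3 classes, from CNN1 at 55.3 CPM in mural nuclei to ADGRL3 at 2869 CPM.

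Set against single classes, mural nuclei kept the contractile list high. At least 2-fold higher were 20 of 26 contractile genes against endothelial nuclei, 19 against stromal and 25 against immune nuclei, where 16.5%, 10.3% and 14.1% of all genes measured were higher and 11%, 9.3% and 18.6% were lower. The list of 28 pericyte genes behaved less evenly. Of its measured genes, 15 of 20 were higher than in endothelial, 17 of 19 than in immune and 9 of 20 than in stromal nuclei, with median log2 ratios of 2.40, 2.09 and 0.65. LHFPL6 of this list was at 578 CPM in stromal and 745 CPM in mural nuclei, and the adipose factor EBF2, outside it, was at 693 and 1069 CPM.

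The machinery for contraction and relaxation was present beside the structural genes. Of 45 ion channel and calcium handling genes measured, 23 were at least 2-fold higher in mural nuclei and 1 was lower. Of 16 genes of the nitric oxide and cyclic GMP pathway measured, 8 were higher and 4 lower. Among all genes measured 8.51% were higher and 10.5% lower. GUCY1A1, the partner subunit of the rule gene GUCY1B1 in soluble guanylate cyclase, was at 726 (679 to 775) CPM against 77.6 (71.5 to 84.1). IRAG1, a substrate of the cyclic GMP-dependent kinase at the calcium store, was at 633 (589 to 679.8) against 59.7 (54.3 to 65.4) CPM, and the kinase itself, PRKG1, was at 152 (131 to 175) against 42.6 (38.1 to 47.5) CPM. NOS3, the endothelial nitric oxide synthase, was at 7.42 CPM in mural and 38 CPM in other nuclei. The phosphodiesterases PDE2A, PDE3B and PDE4D were the other 3 lower genes of the list.

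Receptors for vasoconstrictors were among the genes higher in mural nuclei. Of 31 vasoactive receptors measured, 13 were at least 2-fold higher and 8 at least 2-fold lower, where 8.51% and 10.5% of all genes were. Both counts lay above those shares. The endothelin receptor EDNRA was at 256 (229 to 287) CPM in mural and 32.4 (28.5 to 36.7) CPM in other nuclei. The alpha-adrenergic receptors ADRA1A and ADRA1D were at 191 and 93.2 CPM, against 37.5 and 9.4 CPM. AGTR1, the type 1 angiotensin II receptor, was at 184 against 70 CPM. Its level in stromal nuclei alone, 291 of 1440661 UMIs, was not below that in mural nuclei. Lower receptors held CALCRL, the receptor of calcitonin gene-related peptide and adrenomedullin, at 58.6 against 222 CPM, and S1PR1, a sphingosine 1-phosphate receptor, at 2.47 against 31.3 CPM.

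Genes through which mural cells and endothelium exchange signals were mixed. Of 19 Notch genes measured, 4 were higher and 5 lower, where 8.51% and 10.5% of all genes were. The Notch target factors HEYL and HEY2 were at 118 and 31.3 CPM in mural nuclei, against 20.8 and 2.87 CPM. The endothelial ligand DLL4 was at 0.825 CPM, from 1 UMI, against 14. ANGPT1, the mural ligand of the endothelial receptor TEK, was at 535 (495 to 578) against 79.5 (73.3 to 86.1) CPM. Of 5 PDGF genes measured, 2 were higher and 3 lower. PDGFA and PDGFC were the higher ones, at 51.1 and 702 CPM, and PDGFB was at 33.8 against 77.8 CPM.

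Markers of endothelial, adipocyte, macrophage and stromal cells were mostly lower than in all other nuclei pooled, a pool that holds those types. At least 2-fold lower were 10 of 12 endothelial, 10 of 12 adipocyte, 9 of 13 macrophage and 8 of 15 stromal progenitor markers measured. In these 4 lists only EBF2, from the stromal list, was at least 2-fold higher. Smaller marker lists gave 5 of 12 lymphocyte, 3 of 6 lymphatic endothelial and 3 of 5 mast cell genes lower, and none higher. Of all genes measured 10.5% were lower. The Schwann, mesothelial and skeletal muscle lists gave 1 of 6, 1 of 3 and 1 of 5 lower, and none higher. These are too few to set apart from that share, and their median log2 ratios were -0.69, 0.39 and -0.23. Summed over the 12 endothelial markers, mural nuclei held 883 CPM against 8194 CPM in endothelial, 473 CPM in stromal and 579 CPM in immune nuclei, with EMCN their most abundant in mural nuclei and none at 0. Set against classes that should lack them, 7 of 11 endothelial markers measured were higher in mural than in immune nuclei (1 lower), with a median log2 ratio of 1.25, and 2 of 11 were higher than in stromal nuclei. Of 13 stromal progenitor markers measured, 8 were higher in mural than in endothelial nuclei (1 lower, median 1.31) and 5 higher than in immune nuclei. The part of RNA from those cell types in the mural values was not tested.

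The second comparison set the 88 smooth muscle nuclei against the 202 pericyte nuclei. Of 8098 genes measured, 8.47% were at least 2-fold higher and 5.47% at least 2-fold lower in smooth muscle nuclei, with a median log2 ratio of 0.08. The most abundant transcript of the library, an unnamed gene, took 6.90% of UMIs in smooth muscle and 11.1% in pericyte nuclei. The contractile list held 16 of 26 genes higher and none lower, with a median log2 ratio of 1.18. All 26 were measured, so the minimum removed none. CNN1, with 63 UMIs in smooth muscle and 4 in pericyte nuclei, and DES, with 107 and 7, reached it through the smooth muscle group alone. Of 17 genes measured in a pericyte list without rule genes, 1 was higher and 5 were lower, with a median of -0.34. That median was -0.042 once the members were thinned to 2000 UMIs. Markers of other cell types differed too. Of 6 macrophage markers measured, 3 were lower in smooth muscle nuclei and none higher, with a median log2 ratio of -0.75. Of 12 stromal progenitor markers measured, 3 were higher and 1 lower, with a median of 0.14. The endothelial markers also differed. Of 10 measured, 5 were lower in smooth muscle nuclei and none higher, and their sum was 1080.4 (1008 to 1156) CPM in pericyte and 537 (470.4 to 609.7) CPM in smooth muscle nuclei, with EMCN the most abundant in both. In the members with B at 0, 39 pericyte and 19 smooth muscle nuclei, that sum was 689 (536 to 872) and 274 (149.9 to 460.1) CPM, and the pericyte list gave a median log2 ratio of 0.087 there.

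Contractile genes were graded between the groups rather than on or off together. CNN1 was at 143 (110.1 to 183) CPM in smooth muscle and 5.18 (1.41 to 13.3) CPM in pericyte nuclei, 27.7-fold (10.3 to 105) higher. DES was at 243 (199 to 294) against 9.06 (3.64 to 18.7) CPM, and ACTG2, the enteric smooth muscle actin, at 152 (118 to 193) against 7.76 (2.85 to 16.9) CPM. SORBS2, an adaptor of the actin cytoskeleton, was 14.4-fold (10.7 to 19.7) higher. TPM2, MYLK (myosin light chain kinase) and TAGLN were intermediate, at 5.97-fold (4.56 to 7.89), 2.74-fold (2.34 to 3.22) and 2.64-fold (1.88 to 3.72). At the other end of the list, CALD1, caldesmon, was at 2469.6 and 2425 CPM, a ratio of 1.02-fold (0.944 to 1.1), and SYNPO2 was at 1897 and 977 CPM. Pericyte nuclei thus carried CALD1 at the level of smooth muscle nuclei, while their 5.18 CPM of CNN1 and 9.06 CPM of DES stood beside 3.66 and 3.4 CPM in other cow nuclei.

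A few regulators of this program were higher in smooth muscle nuclei, and most were not past 2-fold. MYOCD was at 296 (247 to 351) CPM in smooth muscle and 37.5 (25.1 to 53.9) CPM in pericyte nuclei. HEY2, a Notch target of arterial cells, was at 72.8 (49.8 to 103) against 7.76 (2.85 to 16.9) CPM, and the ligand JAG1 at 412 (354 to 476) against 153 (126 to 183) CPM. The gap junction gene GJA5, known from arteries, was at 136 (104 to 176) CPM in smooth muscle and 5.18 (1.41 to 13.3) CPM in pericyte nuclei. Of 33 mural transcription factors measured, MYOCD and SOX6 were the 2 that were at least 2-fold higher, and none was lower, a share below the 8.47% of all genes. Of 14 Notch genes measured, HEY2 and JAG1 were the 2 higher and none was lower, with a median log2 ratio of -0.13. HEY2, with 32 UMIs in smooth muscle and 6 in pericyte nuclei, reached the minimum of UMIs through the smooth muscle group alone. Its place in that count therefore rests on the group where it was high. EBF1 stood at 3586 and 3576 CPM and TBX2 at 88.7 and 97 CPM.

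Some genes of calcium entry and release were higher in smooth muscle nuclei. Of 39 channel and calcium handling genes measured, 14 were higher there and 2 lower, where 8.47% and 5.47% of all genes were. Their median log2 ratio was 0.27. CACNA1C, the pore of the L-type calcium channel, was at 1092 (996 to 1194) CPM against 256 (222 to 294), and RYR2, the ryanodine receptor of the calcium store, at 1692 (1572 to 1818) against 396 (353 to 443) CPM. KCNAB1, a regulatory subunit of voltage-gated potassium channels, was at 1542 (1428 to 1662) against 59.5 (43.6 to 79.4) CPM, 25.9-fold (19.2 to 35.7) higher, and in the sublibraries at 1296 and 1816 CPM against 72.1 and 50. KCNMA1, the large-conductance calcium-activated potassium channel, and PLN, phospholamban, were 3.64-fold (2.85 to 4.67) and 4.15-fold (1.98 to 9.32) higher. By contrast CACNA1D, a second L-type pore, was at 732 and 828 CPM, and CACNA1H, a T-type pore, at 134 and 136 CPM.

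Few channel genes were higher in pericyte nuclei. The 2 of the 39 that were, PIEZO2 and the phospholipase C relative PLCL1, made up a share near the 5.47% of all genes, and ANO3 and ABCC9 were named outside that list. ANO3 was at 3547 (3415 to 3682) CPM in pericyte and 885 (799 to 977) CPM in smooth muscle nuclei, 4.01-fold (3.6 to 4.47) higher, and was detected in 90.1% and 44.3% of nuclei. The sublibraries gave 3565 and 3533 CPM in pericyte and 851 and 922 CPM in smooth muscle nuclei. After thinning to 2000 UMIs, which left 154 pericyte and 75 smooth muscle nuclei, the shares were 90.3% and 36%, and for KCNAB1 13% and 60%. ABCC9, the sulfonylurea receptor subunit of the ATP-sensitive potassium channel and a textbook pericyte gene, was 2.48-fold (2.11 to 2.94) higher in pericyte nuclei at 1000.2 (931 to 1073) CPM. PIEZO2, a mechanosensitive channel, was 2.23-fold (1.61 to 3.14) higher. Neither group was without ANO3 or ABCC9, but 252 of the 389 ANO3 UMIs of smooth muscle nuclei lay in the 23 nuclei with MYH11 plus ACTA2 at 3 to 5, next to the dividing value, and the other 65 were at 429.6 CPM.

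Receptors divided in both directions. AGTR1 was at 255 (221 to 293) CPM in pericyte and 59.1 (38.6 to 86.6) CPM in smooth muscle nuclei, 4.31-fold (2.86 to 6.76) higher, with sublibrary values of 216 and 284 against 69.1 and 48 CPM. In the members with B at 0 it was at 169.8 (98.9 to 272) and 78.4 (21.3 to 201) CPM, with intervals that overlap, and 1 nucleus held 26.9% of its UMIs in smooth muscle nuclei. EDNRB, the second endothelin receptor, was also higher in pericyte nuclei (2.44-fold (1.35 to 4.73)). ADRA1B, CALCRL and RAMP1, the last a coreceptor of CALCRL, were higher in smooth muscle nuclei, ADRA1B by 3.3-fold (1.74 to 6.47). EDNRA was at 323 and 219 CPM, a ratio of 1.48-fold (1.17 to 1.86), under the fold used here. In all, 3 of 11 receptors measured were higher in smooth muscle nuclei and 2 in pericyte nuclei, where 8.47% and 5.47% of all genes were.

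Members of the cyclic nucleotide pathway differed in both directions. Of 14 genes measured, 4 were at least 2-fold higher in smooth muscle nuclei, IRAG1, PDE3A, NPR2 and NPR3, and 1 was lower, PDE1C, where 8.47% and 5.47% of all genes were, so that 1 lower gene is near the share of all genes. The phosphodiesterase PDE3A was at 2279 (2139.7 to 2424) against 945 (877 to 1016) CPM, whereas PDE1C, the calmodulin-dependent one, was at 725 (648 to 809.6) against 2070.2 (1970.0 to 2174) CPM. GUCY1A1 was at 500.3 and 854 CPM, a pericyte excess of 1.71-fold (1.46 to 2).

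**Figure D3:**
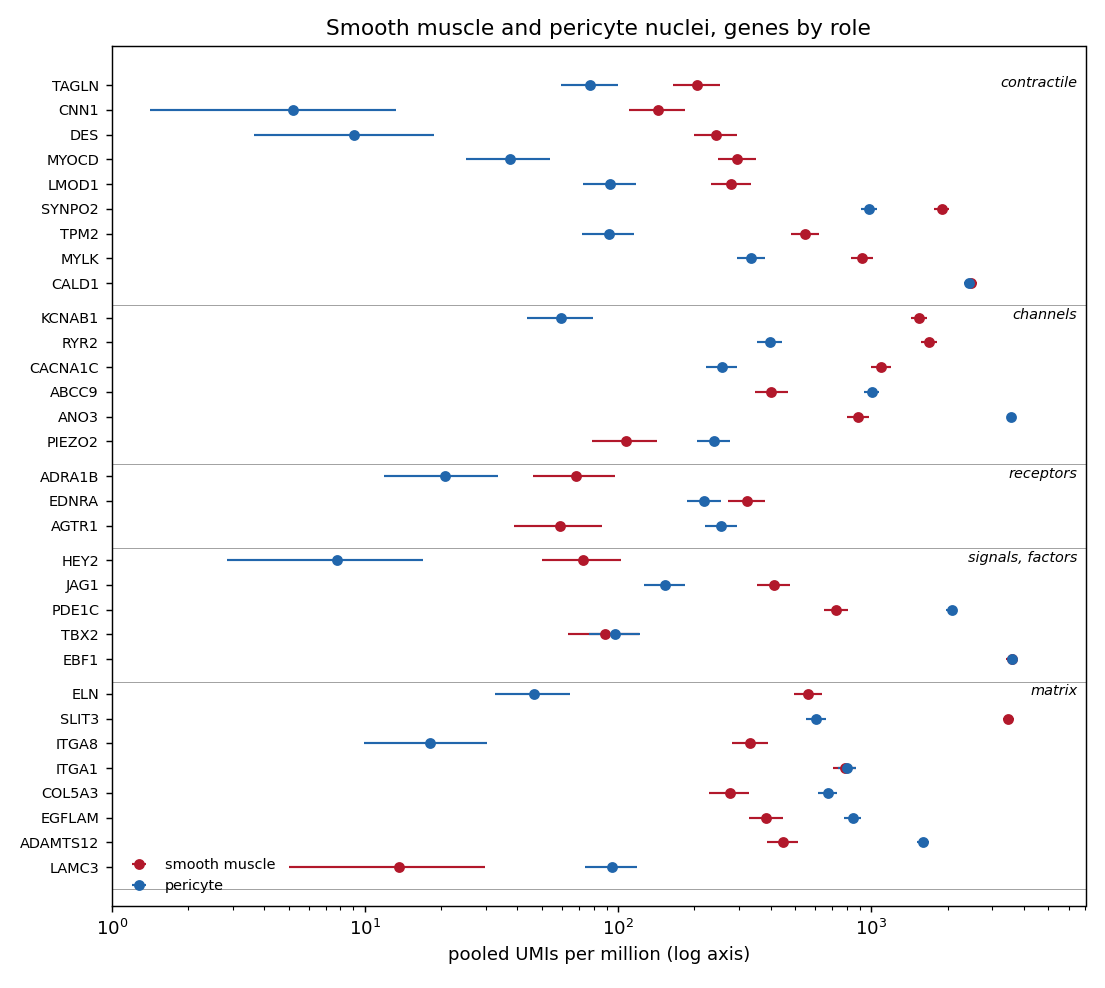
Pooled CPM on a log axis in 88 smooth muscle (red) and 202 pericyte (blue) nuclei of cow WAT for genes of the lists and named genes, ordered by role, with bars for 95% Poisson counting intervals. CNN1, DES, KCNAB1, ITGA8 and ELN are more than 10-fold higher in smooth muscle nuclei, ANO3, AGTR1, ADAMTS12 and LAMC3 are more than 3-fold higher in pericyte nuclei, and CALD1, TBX2, EBF1 and ITGA1 lie together.

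The matrix around the vessels divided by molecule. Of 56 basement membrane and matrix genes measured, 14 were higher in smooth muscle nuclei and 6 lower, where 8.47% and 5.47% of all genes were. Some reached the minimum of UMIs through the group where they were high. ITGA8 had 146 UMIs in smooth muscle and 14 in pericyte nuclei, and LAMC3 had 6 and 73. ELN, elastin, was at 564 (496 to 639) CPM in smooth muscle and 46.6 (32.6 to 64.5) CPM in pericyte nuclei. COL4A5, a minor collagen IV chain, was at 398 (341 to 461) against 37.5 (25.1 to 53.9) CPM, while the major chain COL4A1 was at 901 (814 to 994) against 1802 (1709 to 1899.6) CPM. Among laminins, LAMA3 and LAMA5 were higher in smooth muscle nuclei, at 300.2 and 207 CPM against 54.3 and 69.9, and LAMC3 was higher in pericyte nuclei, at 94.5 (74 to 119) against 13.6 (5.01 to 29.7) CPM. The integrin ITGA8 was 18.3-fold (10.6 to 34.4) higher in smooth muscle nuclei and ITGA1 was at 785 and 802 CPM. DMD, dystrophin, and its partner SGCD, a sarcoglycan, were at 2192 and 307 CPM against 312 and 42.7. Pericyte nuclei were higher in ADAMTS12, a secreted protease (1599 (1511 to 1691) against 446 (385 to 513) CPM), COL5A3 (2.45-fold (2 to 3.01)) and, from the pericyte list, EGFLAM, also called pikachurin (2.2-fold (1.85 to 2.62)).

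By the naming rule, the 15 genes with the highest smooth muscle ratio held, beside CNN1, DES, ACTG2, KCNAB1, GJA5, ITGA8 and RCAN2, also CSRP2, PDZRN4, ASB2, GRIP2, GPR20, PTGIS, OR13P13 and P4HA3. CSRP2, a LIM protein of smooth muscle, had 23 UMIs in smooth muscle nuclei and 0 in pericyte nuclei, at least 13.5-fold higher against 3 UMIs over the pericyte group. PTGIS, prostacyclin synthase, was at 339 (287 to 398) against 20.7 (11.8 to 33.6) CPM, and PDZRN4, a PDZ domain protein, at 989 (898 to 1087) against 42.7 (29.4 to 60) CPM. GPR20, an orphan receptor, had 1 UMI in pericyte nuclei and a ratio of 33.4-fold (5.31 to 1388).

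At the pericyte end the 15 genes were C7, SLC45A2, EBI3, GCNT1, FAM162B, LAMC3, FLOT2, ND5, RAB35, IL15, GJA4, GPKOW, GIPR, EPSTI1 and ADGRG6. Most of these were sparse. ND5 is a mitochondrial gene, and mitochondrial UMIs made up 0.042% of the pericyte and 0.015% of the smooth muscle total. C7, a complement component, was at 58.2 (42.5 to 77.9) CPM in pericyte and 4.55 (0.551 to 16.4) CPM in smooth muscle nuclei, from 2 UMIs in the latter, and EBI3, a cytokine subunit, had 1 UMI in smooth muscle nuclei, with a ratio of 14.2-fold (2.33 to 584). The best covered was ADGRG6, an adhesion receptor, at 395 (352 to 442) against 79.6 (55.4 to 111) CPM. GJA4, a connexin of small vessels, was at 71.2 (53.6 to 92.6) against 11.4 (3.69 to 26.5) CPM. In the members with B at 0, ADGRG6 was at 539.5 (405 to 704) and 19.6 (0.496 to 109) CPM, and ANO3 at 3867 (3491 to 4272) and 725 (510.3 to 999) CPM, which is the same order as in all members.

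Some textbook pericyte genes were scarce in these nuclei. RGS4 had 0 UMIs in mural nuclei and 51 in other nuclei, which puts it at least 2.69-fold lower against a limit of 3 UMIs. HIGD1B, NDUFA4L2 and VTN were under the 20 UMIs needed to be measured, and COX4I2 was at 28 (19.4 to 39.2) CPM in mural and 2.22 (1.29 to 3.55) CPM in other nuclei. KCNJ8, the pore partner of ABCC9, was not analysed here. FABP4, the fatty acid binding protein of adipocytes and capillary endothelium, was at 351 (310.1 to 395) CPM in pericyte and 129.6 (98.2 to 168) CPM in smooth muscle nuclei, and at 309.7 (210.4 to 439.6) and 78.4 (21.3 to 201) CPM in the members with B at 0. Its 247 CPM in other cow nuclei lay between those of the 2 mural groups. The adipocyte markers did not share its direction: of 10 measured, PLIN4 and LIPE were at least 2-fold higher in smooth muscle nuclei, FABP4 alone was lower, and the median log2 ratio was 0.28.

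To see whether the 2 groups met gradually, the members were also placed in 4 steps of MYH11 plus ACTA2: 132 nuclei at 0, 70 at 1 to 2, 23 at 3 to 5 and 65 at 6 or more. KCNAB1 was at 52.9, 69.8, 74.5 and 2098 CPM in these steps, and DES at 6.35, 13.3, 24.8 and 326 CPM. For these genes the step at 3 to 5 stood near the pericyte nuclei, with DES there resting on 3 UMIs. Their level was high only at 6 or more. CNN1 was intermediate at 3 to 5, with 2.12, 9.98, 49.6 and 179 CPM over the steps, but rested on 6 UMIs there. LMOD1 was at 69.9, 129.7, 141 and 332 CPM and TAGLN at 63.5, 99.8, 66.2 and 257 CPM. SYNPO2 was at 976, 978, 1100 and 2198 CPM. At 3 to 5 LMOD1, TAGLN and SYNPO2 also stood near the pericyte nuclei. The summed contractile list was at 11381, 12216, 14470 and 25493 CPM. Its value at 3 to 5 was nearer to the step at 1 to 2 than to the step at 6 or more. ANO3 was at 3386, 3798, 2085 and 429.6 CPM, and ABCC9 was at 877, 1194, 422 and 395 CPM. NOTCH3, a gene of the rule, was at 595, 732, 1034 and 718 CPM. The 23 nuclei at 3 to 5, with a median of 4500 UMIs, counted as smooth muscle by the rule, and a deep pericyte nucleus can reach 3 UMIs more readily than a shallow one. When the value was scaled to depth, at more than 1 UMI of MYH11 plus ACTA2 per 1000, 11 of these 23 nuclei and 64 of the 65 at 6 or more stayed with smooth muscle, 7 pericyte nuclei joined them, and the groups became 82 and 208. The median log2 ratio of the contractile list was then 1.36.

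**Figure D4:**
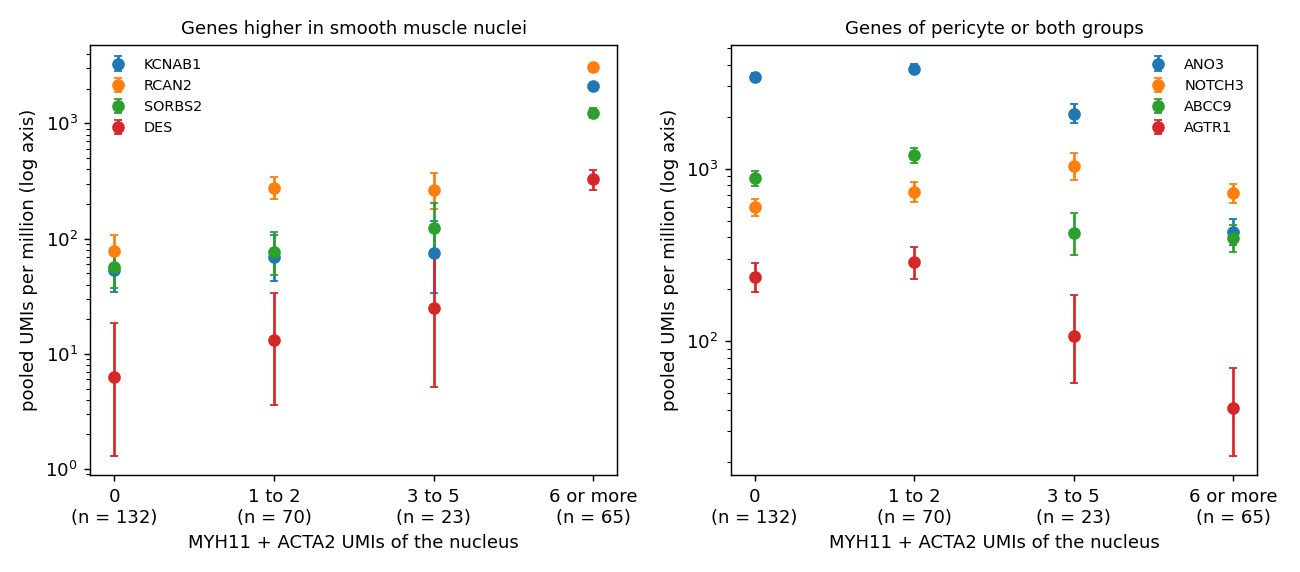
Pooled CPM on a log axis, with 95% Poisson counting intervals, in mural nuclei of cow WAT grouped by their UMIs of MYH11 plus ACTA2 (132, 70, 23 and 65 nuclei). The left panel shows KCNAB1, RCAN2, SORBS2 and DES, which are highest at 6 or more, and the right panel ANO3, ABCC9 and AGTR1, which are lowest there, with NOTCH3, which ranges from 595 to 1034 CPM.

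The third comparison applied the same rule to the rat libraries. It found 132 of 2704 nuclei in taPVAT (4.88%, 4.10 to 5.76) and 174 of 2687 in BAT (6.48%, 5.57 to 7.47), against 14.1% in cow WAT. In mesPVAT it found 48 of 3025 and in RP fat 20 of 2805, too few to describe. Species, depot, sex and depth moved together across these libraries and cannot be told apart, with median depths of 1246 UMIs in taPVAT, 1706 in BAT, 346 in mesPVAT and 213 in RP fat against 3530 in cow WAT. Smooth muscle made up 63.6% of mural nuclei in taPVAT (54.8 to 71.8) and 56.9% in BAT (49.2 to 64.4), against 30.3% in cow WAT. The rule genes were not at like levels in rat. In the mural nuclei of taPVAT and BAT, MYH11 was at 2410 and 4222 CPM and TRPC6 at 55.3 and 43.3 CPM. MYH11 also enters the division into the 2 groups. The part of the rule itself in these differences between libraries was not tested.

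Most of the 20 leading cow genes also stood out in rat mural nuclei. In taPVAT 17 of the 20 were measured and 15 were at least 2-fold higher in mural than in other nuclei of the library, where 14.2% of 14636 genes were higher and 4.74% lower. In BAT 18 were measured, of which CNN1 (29 mural and 10 other UMIs) and FHL5 (33 and 12) reached the minimum through the mural group alone. Of the 18, 17 were higher, where 14.9% of 14678 genes were higher and 5.41% lower. ANO3 was the exception in both, at 6.51 CPM in mural and 13.6 CPM in other nuclei of taPVAT and 13.2 and 13.2 CPM in BAT, from 2 and 7 UMIs in mural nuclei. LMOD1 stayed under 2-fold in taPVAT, at 286 against 151 CPM. SYNPO2, MYOCD and TPM2 were higher in the mural nuclei of both rat libraries.

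**Figure D5:**
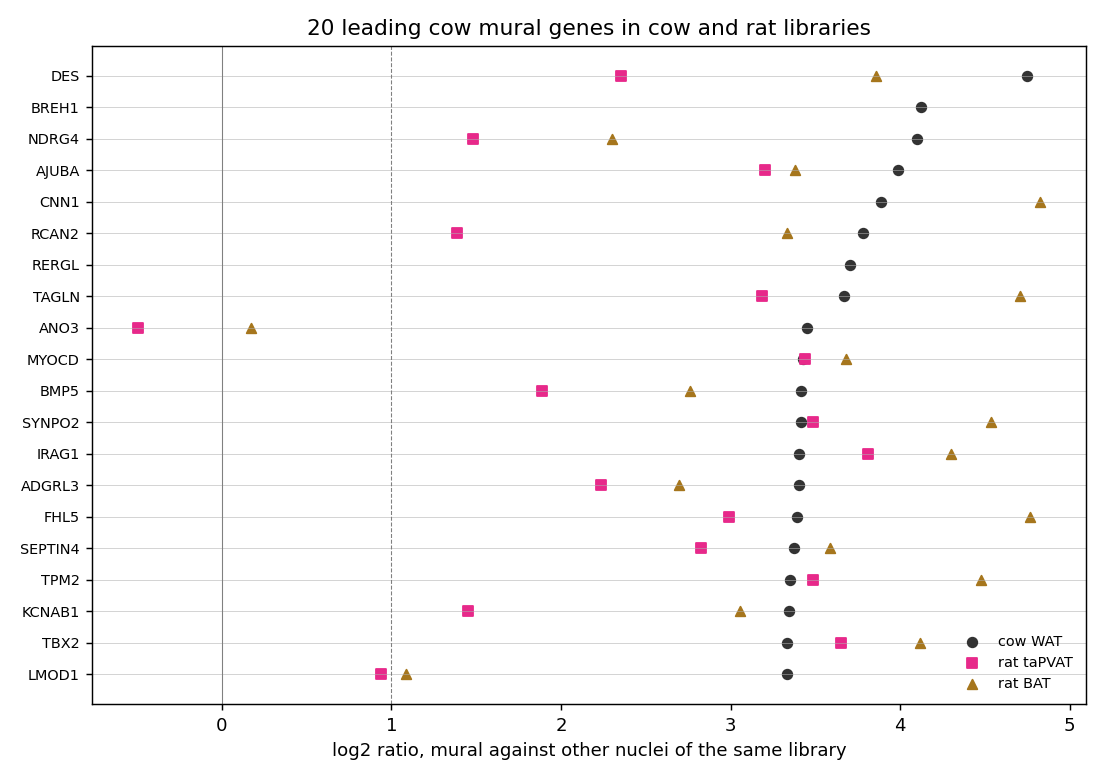
Log2 ratio of pooled UMIs in mural against other nuclei of the same library for the 20 leading cow mural genes, in cow WAT (circles), rat taPVAT (squares) and rat BAT (triangles), with 0 as a solid and 2-fold as a dashed line. Genes under 20 UMIs in a rat library have no point there. ANO3 lies below 2-fold in both rat libraries and LMOD1 in taPVAT, and every other point is above it.

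Division into smooth muscle and pericyte nuclei gave the contractile genes past 2-fold in BAT the same direction as in cow, and other genes mixed directions. In BAT all 26 contractile genes were measured, so the minimum removed none. In smooth muscle nuclei 16 were at least 2-fold higher and none lower, with a median log2 ratio of 1.46. Of all 5070 genes measured, 8.56% were higher and 5.78% lower. Several contractile genes reached the minimum through the smooth muscle group alone, such as TAGLN with 102 and 0 UMIs and SYNPO2 with 227 and 6. In taPVAT, where 6.65% of 3353 genes were higher and 4.8% lower, 5 contractile genes were not measured and others were measured through the smooth muscle group alone, such as PDLIM7 with 24 and 1 UMIs and LMCD1 with 20 and 1, so no count is given. Of the 15 leading cow smooth muscle genes, 4 were measured in taPVAT and 7 in BAT, some of them through the smooth muscle group alone, such as CNN1 with 29 and 0 UMIs and GRIP2 with 62 and 1 in BAT, so the number of them past 2-fold is not given. Of the 15 leading cow pericyte genes, 5 were measured in taPVAT and 6 in BAT. In taPVAT GIPR was at least 2-fold higher in pericyte nuclei. C7 had 30 UMIs in smooth muscle and 5 in pericyte nuclei there, and reached the minimum through the former. In BAT GIPR and LAMC3 were higher in pericyte nuclei. GPKOW had 20 UMIs in smooth muscle and 3 in pericyte nuclei of BAT, and also reached the minimum through the former. In BAT the endothelial markers went the opposite way to cow, with 5 of 10 measured higher in smooth muscle nuclei and none lower. Their median log2 ratio was 1.00. In taPVAT 2 of 6 were higher and none lower, with a median of 0.07, so no direction is read there. The rat smooth muscle groups held more UMIs than the pericyte groups. Whether these markers reached the minimum through the former alone was not examined. ABCC9 was higher in pericyte nuclei in both, at 2517 against 1081 CPM in taPVAT and 3582 against 1035 CPM in BAT. KCNAB1 reached the minimum through the smooth muscle group alone in both, with 24 and 4 UMIs in taPVAT and 112 and 13 in BAT. Its intervals in smooth muscle and pericyte nuclei overlapped in taPVAT, at 72.9 to 169 and 11.3 to 106 CPM. In BAT it was at 303 (249 to 364) against 81 (43.1 to 138) CPM. EDNRA was at least 2-fold higher in pericyte nuclei of taPVAT and stayed under 2-fold in BAT, at 497 against 180.2 CPM and 623 against 332 CPM, whereas in cow it was at 323 CPM in smooth muscle and 219 CPM in pericyte nuclei. CALD1, level between the cow groups, was at 1478 and 779 CPM in BAT.

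Levels of single genes in mural nuclei can be set side by side across species only as values, since the annotations and depths differ. TRPC6, a rule gene, was at 1246 CPM in cow and at 55.3 and 43.3 CPM in taPVAT and BAT. PRKG1 was at 152 CPM in cow and at 3019 and 4397 CPM in rat. PDE1C was at 1583 CPM in cow mural nuclei, above the 192 CPM of other cow nuclei, and at 48.8 and 84.8 CPM in rat mural nuclei, where other nuclei held 70 and 115 CPM.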

How the data were processed

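Nuclei of snap-frozen cow and rat adipose tissue were fixed and barcoded with the Parse Evercode kit. Reads were processed by the authors with the Parse split-pipe pipeline (1.5.1), after FastQC, against ARS-UCD1.3 for cow and GRCr8 for rat. The deposited matrices hold whole-number UMI counts per gene and nucleus, not normalized, and were used as deposited. The 10x library was not used here. The cow library held 16827260 UMIs in 2297 nuclei, and 1 unnamed gene, ENSBTAG00000066082, took 11.1% of them. The upper limit of 15000 UMIs in the rule is the study's, and its limits of 4500 genes and 3% mitochondrial UMIs were tried as alternatives.

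Pooled counts were compared as CPM in Python 3.11.15 with numpy 2.4.6, scipy 1.17.1 and pandas 2.3.3. Counts carry exact Poisson intervals, shares exact Clopper-Pearson intervals and ratios exact conditional intervals, all at 95%. The log2 ratio used pooled counts with 1 UMI added. Named genes were the 20 highest in mural against other nuclei and the 15 highest and 15 lowest in smooth muscle against pericyte nuclei, among genes with a symbol, outside the rule, with at least 20 UMIs and detected in at least 10% of the higher group, together with the rule genes and list members. The members and gene lists were chosen with earlier results of these data known. The procedure was tested on simulated data.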

Additional observations from a re-analysis of the deposited data

Results flagged for a closer look

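Among the 233 cow nuclei above 15000 UMIs, which no comparison used, 13 met the A and B conditions of the mural rule. That is 5.58% (exact binomial 95% interval 3.00 to 9.35), and 9 of the 13 had MYH11 plus ACTA2 at 3 UMIs or more. They drew attention because mural genes appeared in nuclei outside the main comparisons. Their median was 17720.0 UMIs, with a range of 16872 to 79510.0, and their rule genes made up 3.20 UMIs per 1000, against 5.59 in the 290 members. Whether these nuclei hold 1 or more cells was not tested.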

How the results depend on the processing

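No paired analysis was possible because each depot was 1 library and no result came from a test. The 290 mural nuclei became 243 with A at least 8, 360 and 234 with A above 1 and 4 times B, 256, 247, 242 and 245 without NOTCH3, PDGFRB, TRPC6 and GUCY1B1, 140 and 150 in sublibraries 1 and 2 alone, and 207 after thinning to 2000 UMIs, which drops shallower nuclei (229 members reach that depth) and lowers the A of the rest. Their share of 14.1% became 11.8% (A at least 8), 17.4% and 11.3% (1 and 4 times B), and 12.4%, 12.0%, 11.7% and 11.9% without those genes. The 202 pericyte nuclei became 160 (A at least 8), 250 and 154 (1 and 4 times B), 172, 160, 159 and 161 without those genes, 95 and 107 in the sublibraries, 153 after thinning and 132 with MYH11 plus ACTA2 at 1 or more as smooth muscle. The 88 smooth muscle nuclei became 110 (1 times B), 70 without MYH11 in A, 45 and 43 in the sublibraries, 54 after thinning and 158 with that value of 1. The share in rat taPVAT, 4.88%, was 6.36% with A at least 3, 3.18% with A at least 8 and 5.88% with 1 times B. In BAT, 6.48% became 8.11%, 5.17% and, with 4 times B, 5.32%. In mesPVAT, 1.59% became 3.01%, 0.793% and, with 1 times B, 2.18%, and in RP fat 0.713% became 1.35% and 0.321%. Genes past 2-fold between mural and other nuclei, 3343, became 10089 with no minimum of UMIs, 1409 at 3-fold and 6456 in members with B at 0, an alternative added after seeing the data. Their balance of 1497 higher and 1846 lower turned to 7897 and 2192 with no minimum and to 5198 and 1258 with B at 0, and adding 1 UMI to each side lifts the smaller set by construction. Between smooth muscle and pericyte nuclei 1129 genes became 6093 with no minimum, 512 with 50 UMIs, 374 at 3-fold, 448 with B at 0 and 750 with MYH11 plus ACTA2 at 1 or more. Their 686 higher and 443 lower became 225 and 223 with B at 0 and 269 and 105 at 3-fold. The contractile median, 1.18, became 0.91 with that value of 1, and stayed between 0.91 and 1.59 in 15 alternatives. The pericyte list median of -0.34 turned to 0.087 in members with B at 0, and the cause was not tested. It was -0.042 with members thinned to 2000 UMIs and -0.15 with MYH11 plus ACTA2 at 1 or more, and was lower, down to -0.55 with the mean of shares per nucleus, in others. In mural against other nuclei the medians kept their sign in 12 alternatives each, from 2.04 to 2.34 for the contractile and 1.11 to 1.48 for the pericyte list.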

Other observations

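Genes of the TGF-beta and bone morphogenetic protein family were past 2-fold in small numbers. Of 23 genes measured against other cow nuclei, 4 were at least 2-fold higher and 4 lower, where 8.51% and 10.5% of all genes were. Of 18 measured between the mural groups, 4 were higher in smooth muscle nuclei and 2 in pericyte nuclei. Of all genes 8.47% and 5.47% were, and these counts are too small to read as an excess. SMAD6, an inhibitor of the pathway, was at 121 (90.3 to 158) CPM in smooth muscle and 14.2 (7.1 to 25.5) CPM in pericyte nuclei. It reached the minimum of UMIs through the smooth muscle group alone. LTBP1, which holds latent TGF-beta in the matrix, was higher in smooth muscle nuclei (4.74-fold (3.47 to 6.56)), and LTBP2, of the same family, was higher in pericyte nuclei (2.42-fold (1.71 to 3.5)). BMPR1A, a type I receptor, was at 125 CPM in smooth muscle nuclei and 49.2 CPM in pericyte nuclei.

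Guidance genes were among those that divided the mural groups. SLIT3 was at 3470.2 (3298 to 3649) CPM in smooth muscle and 606 (552 to 663) CPM in pericyte nuclei, and SLIT2 at 321 (269.9 to 378) and 45.3 (31.5 to 63) CPM. Both are secreted ligands of the ROBO receptors, and ROBO1 was at 105 and 212 CPM. Of 14 angiopoietin, VEGF and guidance genes measured, 3 were higher in smooth muscle nuclei and 2 in pericyte nuclei. Among all genes 8.47% and 5.47% were. Against other cow nuclei 4 of 18 were higher and 7 lower, where 8.51% and 10.5% of all genes were. NRP1, a coreceptor of VEGF and semaphorins, was at 703 CPM in smooth muscle and 1298 CPM in pericyte nuclei.

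Cell cycle and immediate early genes differed by the nuclei they were set against. Of 11 cell cycle genes, none was at least 2-fold higher in mural than in other nuclei and 2 were lower. Against endothelial nuclei 5 of 5 measured were higher, where 16.5% of all genes were. The whole list of 12 genes held 108 UMIs in endothelial nuclei, 46 of them from DIAPH3. Some of the 5 may thus have reached the minimum through the mural group alone. Against immune nuclei 6 of 9 were lower, where 18.6% of all genes were. Of 17 immediate early and stress genes, 1 was higher than in other nuclei and none lower, and against endothelial nuclei 8 of 14 were higher and none lower, where 16.5% of all genes were higher and 11% lower. Against stromal nuclei 1 of 14 was higher and 4 were lower, where 10.3% and 9.3% of all genes were. Against immune nuclei 1 of 13 was higher and 2 were lower. Neither of these counts exceeded the shares of all genes there, 14.1% and 18.6%. Between the mural groups 12 of these were measured, with ATF3 and NR4A2 higher in smooth muscle nuclei, FOSB, EGR1, NR4A3 and HSP90AA1 higher in pericyte nuclei, and a median log2 ratio of -0.67. FOSB had 42 UMIs in pericyte nuclei, 38.1% of them from 1 nucleus, and 4 in smooth muscle nuclei. CENPF, at 75 CPM in smooth muscle nuclei, drew 81.8% of its UMIs there from 1 nucleus. In other lists a larger share of genes was higher than among all genes measured. Of 60 matrix genes measured, 18 were higher and 12 lower in mural than in other nuclei, and of 41 transcription factors 13 were higher and 5 lower. Of 21 genes of the pericyte list measured, 13 were higher and 1 lower, with a median log2 ratio of 1.21, where 8.51% of all genes were higher and 10.5% lower.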
